A study of Mus musculus with 8 samples.

Results

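Transcripts of 10 enzymes that build membrane phospholipids and triglycerides were followed in mouse inner medullary collecting duct cells exposed to high salt. The members were the rows whose symbol in the raw count table was Chka, Etnk1, Pcyt1a, Pcyt2, Chpt1, Cept1, Lpin1, Lpin2, Dgat1 or Dgat2, and all 10 were found among 15288 genes. The cells, labelled IMCD and derived from kidney, were grown in high-glucose DMEM with serum and then held for 12 h in serum-free DMEM. Of the 8 bulk RNA libraries, 4 came from cells without added NaCl (control replicates 1 to 4) and 4 from cells with 100 mmol NaCl (NaCl replicates 5 to 8), an amount for which the labels give no volume. Both groups shared the serum-free medium. No genetic change was named, and the labels do not say whether the libraries came from separate cultures, so the tests measure the spread between these libraries, which may be technical.

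Phosphatidylcholine and phosphatidylethanolamine, the main lipids of most cell membranes, are made by parallel branches of the Kennedy pathway. In each branch a kinase phosphorylates choline or ethanolamine, a CTP-dependent transferase activates the product, and a phosphotransferase joins it to diacylglycerol. Lipins supply that diacylglycerol from phosphatidate, and diacylglycerol acyltransferases draw on the same pool to make the triglyceride of lipid droplets. In the renal medulla, phosphatidylcholine is also the parent of glycerophosphocholine, an organic osmolyte that medullary cells accumulate in concentrated surroundings.

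Total counts were between 35.3 and 47.6 M per library. Of the epithelial list, all 8 genes were present, with Krt7 at 338 ± 35.8 and Epcam at 27.3 ± 3.18 CPM (counts of a gene scaled to an equal library total; SD, n = 4) in control, while Cdh1 had at most 30 counts in any library. Its summed level was 870 to 1086 CPM in control and 1094 to 1238 CPM in NaCl libraries, with 4 genes called higher. Most collecting duct principal cell markers were sparse, and Aqp2, the vasopressin-regulated water channel, had 0 to 3 counts in control and 8 to 15 in NaCl libraries. Summed over the 10 listed genes present, these markers were at 137 to 165 and 108 to 116 CPM, most of it from Tfcp2l1, with 1 called higher and 3 lower. Fibroblast markers, 5 of 6 present, summed to 2753 to 3185 and 2405 to 2822 CPM, with Col1a1 at 2492 ± 160 CPM in control, and 1 was called higher and 2 lower. Immune markers, 2 of 4 present, summed to 5.95 to 7.19 CPM in control and 14.9 to 15.3 CPM in NaCl libraries. The rise came from Ptprc, called higher at means of 4.05 and 13.5 CPM. Cd68 went the other way, at 2.41 and 1.69 CPM, and was not called (edgeR adjusted p = 0.0573). Thick ascending limb markers, 3 of 3 present, summed to 8.77 to 11.7 and 18.2 to 24.7 CPM, with Kcnj1 called higher. Of 5 intercalated cell markers Atp6v0d2 alone was present and was called lower, at 1.45 to 2.22 and 0.194 to 0.449 CPM. Proximal tubule markers, 3 of 5 present, were at 162 to 205 and 155 to 177 CPM, endothelial markers, 1 of 4 present, at most 0.797 CPM, and none of these was called. The adipocyte markers Adipoq, Plin1, Cidec and Lep were not in the table, and Fabp4 had at most 14 counts in any library. The part of the markers that moved in the results was not tested. In bulk RNA, fewer cells of a type and less RNA per cell cannot be told apart.

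Called higher with NaCl were Lpin2, Chka, Pcyt2 and Chpt1, and called lower were Dgat2, Etnk1 and Pcyt1a, while Cept1, Lpin1 and Dgat1 were not called. A gene is called here where the edgeR quasi-likelihood test gave it an adjusted p-value below 0.05, adjusted over all 14024 genes tested. All 10 members passed the filter on low counts, and 7 were called, 4 higher and 3 lower. Of all genes tested, 34.1% were called, 16.9% higher and 17.2% lower. For the members the median log2 fold change was 0.15, beside 0.0029 for all genes tested. The groups did not overlap in 6 members, 3 above and 3 below control, where 33.4% of all genes had groups that did not overlap.

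**Figure D1:**
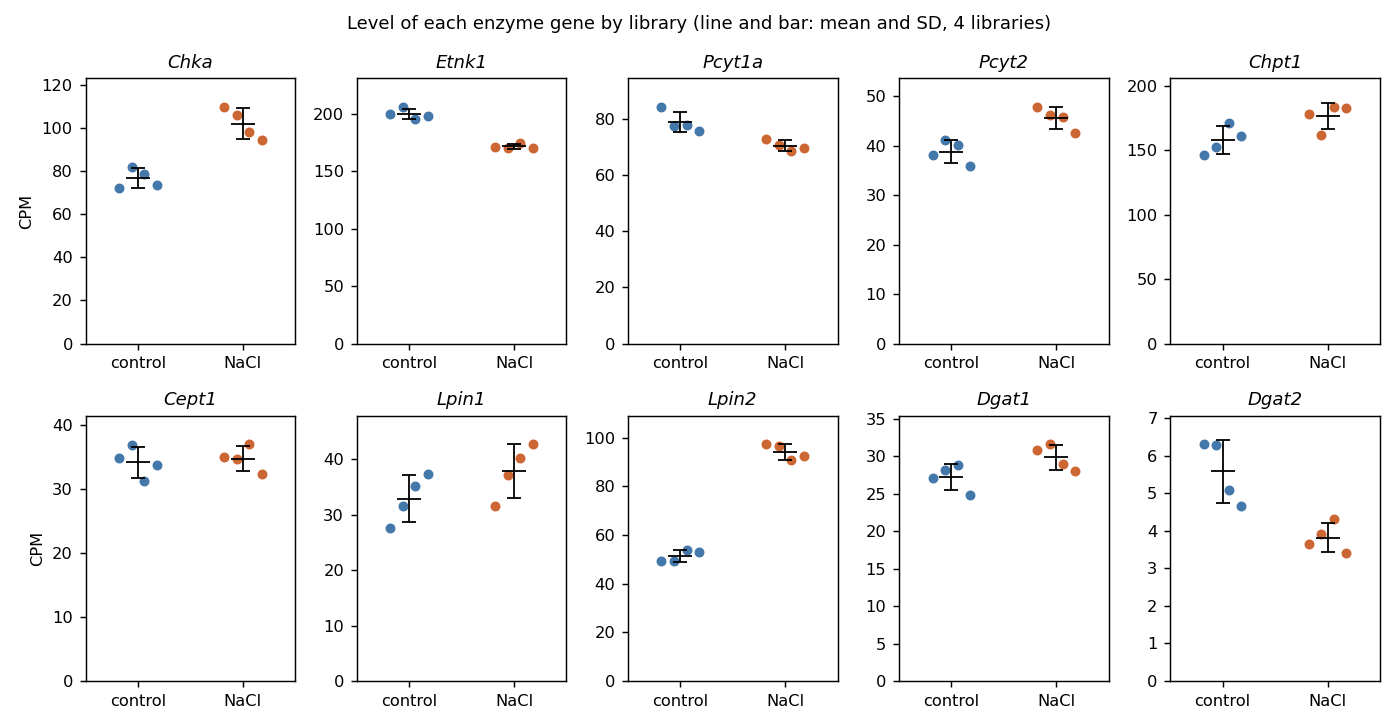
Level of each of the 10 enzyme genes in CPM (vertical axis, from 0) in 4 control and 4 NaCl libraries, with a point per library and the mean and SD in black. Lpin2 shows the widest gap, 49.2 to 53.8 CPM in control against 90.7 to 97.4 CPM in NaCl libraries, and the points of Cept1 overlap.

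**Figure D2:**
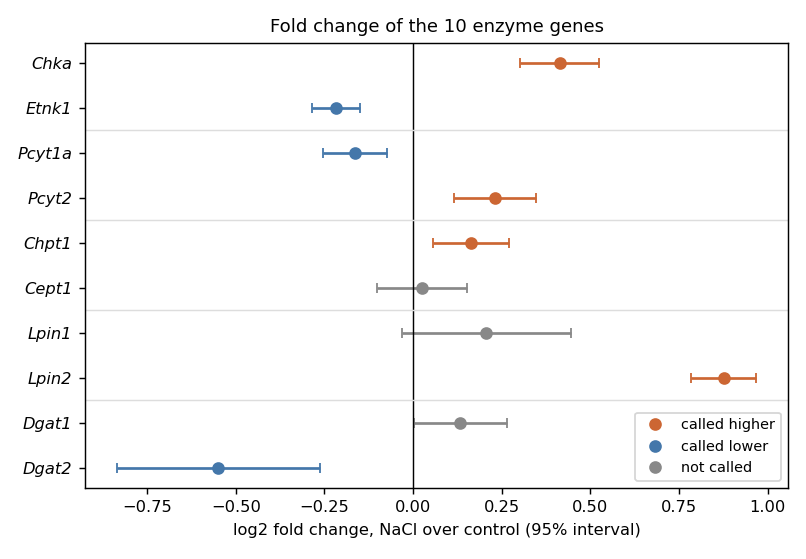
Log2 fold change of each member, NaCl over control (horizontal axis), with its 95% interval and with pairs of the same step between grey lines. The intervals of Chka and Etnk1, and those of Pcyt1a and Pcyt2, lie on opposite sides of 0.

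In the first step, the phosphorylation of choline and ethanolamine, Chka was higher and Etnk1 lower with NaCl. Chka (ENSMUSG00000024843, chromosome 19, 3851773 to 3894369, plus strand, GRCm38) encodes choline kinase alpha. Its level was 72.1, 82.1, 78.8 and 73.5 CPM in control replicates 1 to 4 and 109.8, 105.9, 97.96 and 94.5 CPM in NaCl replicates 5 to 8. Every NaCl library lay above every control library, and the level rose by 33.1% (log2 fold change 0.41, SE 0.053, edgeR adjusted p = 1.85e-05).

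Etnk1 (ENSMUSG00000030275, chromosome 6, 143167221 to 143232307, plus strand) encodes ethanolamine kinase, which commits ethanolamine to phosphatidylethanolamine. It had 200.3, 206.3, 195.5 and 198.0 CPM in control and 171.6, 170.4, 175.0 and 170.8 CPM in NaCl libraries. All NaCl libraries were below all controls, and the level dropped by 0.22 on the log2 scale (SE 0.032, adjusted p = 5.36e-05), to 0.860 of control. The log2 ratio of Chka to Etnk1 counts, in which library size cancels, was -1.39 ± 0.0784 (SD, n = 4) in control libraries and -0.76 ± 0.106 (SD, n = 4) with NaCl. That shift of 0.63 toward the choline kinase was a 1.55-fold change in the ratio (p = 0.0286 in an exact permutation test, two-sided, and 0.0357 after adjustment for the 5 pairs). With 4 libraries against 4, 0.0286 is the smallest p-value this test can give. Because Chka lay above and Etnk1 below control in every NaCl library, their ratio had to separate, and its p-value adds no further evidence. The other kinase genes of the step were not called: Chkb was at 30.2 ± 1.90 and 31.0 ± 1.22 CPM (adjusted p = 0.630), and Etnk2 at 0.401 ± 0.131 and 0.443 ± 0.109 CPM (adjusted p = 0.802).

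The CTP-dependent transferases, which catalyse the step usually held to limit the rate, moved the other way round. Pcyt1a (ENSMUSG00000005615, chromosome 16, 32430921 to 32475070, plus strand) encodes CCT alpha, the main enzyme of the choline branch. It had 84.3, 77.4, 78.0 and 75.8 CPM in control and 72.9, 70.6, 68.4 and 69.8 CPM in NaCl libraries. The groups did not overlap, though the gap between the nearest libraries was small, and the level dropped by 0.16 on the log2 scale (SE 0.042, adjusted p = 0.00631), to 0.893 of control. With the library number 1 to 8 fitted as a linear drift, the log2 fold change was -0.025 and the call was lost (adjusted p = 0.861). On the opposite strand, Slc51a overlaps 7.65% of the exon bases of Pcyt1a, and the strandedness of the counts was not stated.

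The control region of Pcyt1a is shown because it held a match to a sterol element, the sequence bound by SREBP factors of lipid synthesis. The 250 bases before its most upstream RefSeq start (GRCm38.p6, chr16:32430671-32430920, plus strand, 71.6% G and C) are written with the match in capitals:

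Pcyt1a: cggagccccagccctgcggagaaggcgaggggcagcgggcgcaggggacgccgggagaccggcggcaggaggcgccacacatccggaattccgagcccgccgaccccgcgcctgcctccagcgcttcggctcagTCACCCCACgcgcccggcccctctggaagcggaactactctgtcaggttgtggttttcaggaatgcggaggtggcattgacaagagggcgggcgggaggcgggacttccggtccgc

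The capitals mark TCACCCCAC, whose first base is at position -116 from the start. The motif searched was TCACNCCAC on both strands of 300-base RefSeq windows, from 250 bases before to 50 after a start. It was found in 1.24% of 32851 such windows. Entries were found for 7 of the 10 members, in 13 windows, and only Pcyt1a held the motif, in 2 overlapping windows that share this site. A match of letters is not evidence of binding.

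Pcyt2 (ENSMUSG00000025137, chromosome 11, 120610087 to 120617936, minus strand) encodes the ethanolamine-branch counterpart. Its level was 38.0, 41.2, 40.1 and 35.9 CPM in control and 47.9, 46.1, 45.9 and 42.5 CPM in NaCl libraries. All NaCl libraries exceeded all controls, and the level rose by 17.4% (log2 fold change 0.23, SE 0.055, adjusted p = 0.00338). With a linear drift the log2 fold change of Pcyt2 was 0.39 (adjusted p = 0.00253). The log2 ratio of Pcyt1a to Pcyt2 counts went from 1.02 ± 0.109 to 0.63 ± 0.0607 (SD, n = 4 each), a difference of -0.40 (exact permutation p = 0.0286, adjusted 0.0357). As for the kinases, this p-value was fixed by the groups of both genes being apart in opposite directions. Within the ethanolamine branch, the transcript of the kinase was thus lower and that of the CTP-dependent transferase higher. In the choline branch the reverse was measured. Pcyt1b, which encodes the less widely expressed beta form of the choline-branch enzyme, was at 14.0 ± 1.07 CPM in control and 11.8 ± 1.86 CPM in NaCl libraries and was not called (adjusted p = 0.0762), with a log2 fold change of -0.25. It was -0.15 without NaCl replicate 5 (adjusted p = 0.219) and -0.33 without NaCl replicate 7, where it was called (0.0308), as it was with the library number centred within its group (0.0223).

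Of the 2 members that act in the last step of the branches, Chpt1 was called and Cept1 was not. Chpt1 (ENSMUSG00000060002, chromosome 10, 88452745 to 88504073, minus strand) encodes the cholinephosphotransferase of the Golgi. It had 146.0, 152.5, 171.1 and 160.9 CPM in control and 177.9, 162.0, 183.6 and 182.3 CPM in NaCl libraries. NaCl replicate 6 lay within the control range, so the groups overlapped, and the log2 fold change was 0.16 (SE 0.050, adjusted p = 0.0207). The call was lost without control replicate 1 (adjusted p = 0.0528), control replicate 2 (0.0714), NaCl replicate 7 (0.0707) or NaCl replicate 8 (0.0586). When the library number entered the fit as a drift, the log2 fold change was -0.010 (adjusted p = 0.946). Sycp3, on the opposite strand, overlaps 7.93% of its exon bases and stood at 0.0600 CPM in control and 0.102 CPM in NaCl libraries.

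Cept1 (ENSMUSG00000040774, chromosome 3, 106502260 to 106547802, minus strand) encodes the choline and ethanolamine phosphotransferase of the endoplasmic reticulum. Its values were 34.8, 36.9, 31.2 and 33.7 CPM in control and 35.0, 34.7, 37.0 and 32.3 CPM in NaCl libraries. The groups overlapped, and the log2 fold change was 0.025 with a 95% interval from -0.10 to 0.15 (adjusted p = 0.782). Its sign turned to -0.017 without control replicate 3 and to -0.0072 without NaCl replicate 7. With a linear drift the log2 fold change was 0.15 and not called (adjusted p = 0.359). Of its exon bases, 24.7% overlap Dennd2d on the opposite strand, at 5.74 ± 0.930 CPM in control and 6.96 ± 0.767 CPM in NaCl libraries, so some of these counts are uncertain. The log2 ratio of Chpt1 to Cept1 counts differed by 0.14 between the groups, within their spread (exact permutation p = 0.229, adjusted 0.229). That difference ran from 0.084 to 0.22 when each library in turn was left out.

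**Figure D3:**
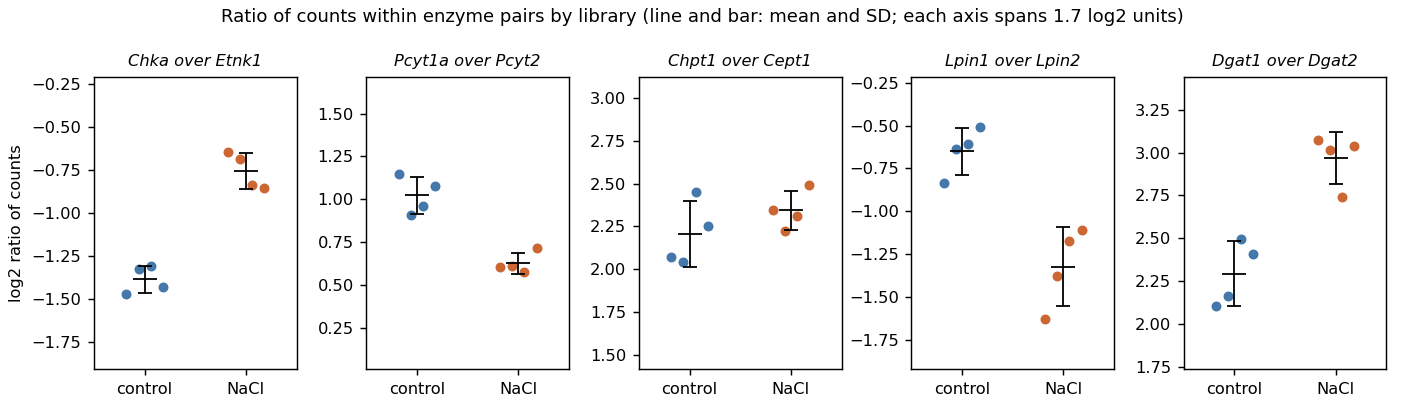
Log2 ratio of the counts of the members of each enzyme pair (vertical axis, the same span in each panel) in 4 control and 4 NaCl libraries, with the mean and SD in black. The groups are apart in 4 pairs and overlap for Chpt1 over Cept1.

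The lipins, which convert phosphatidate to diacylglycerol, gave the highest fold change of the 10 genes. Lpin2 (ENSMUSG00000024052, chromosome 17, 71182560 to 71249817, plus strand) had 49.3, 49.2, 53.8 and 53.2 CPM in control and 97.4, 96.5, 90.7 and 92.4 CPM in NaCl libraries. The gap between the groups was much wider than the range inside either of them. The level rose 1.84-fold (log2 fold change 0.88, SE 0.044, adjusted p = 2.36e-10), and its log2 fold change stayed between 0.85 and 0.90 when each library in turn was left out.

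Lpin1 (ENSMUSG00000020593, chromosome 12, 16535669 to 16610966, minus strand) encodes the family member that also acts as a transcriptional coactivator. It had 27.6, 31.6, 35.3 and 37.3 CPM in control and 31.6, 37.1, 40.3 and 42.8 CPM in NaCl libraries. The ranges overlapped over most of their width, and the log2 fold change of 0.21 (95% interval -0.033 to 0.44) was not called (adjusted p = 0.171). Single libraries moved it from 0.13 without control replicate 1 (adjusted p = 0.346) to 0.28 without NaCl replicate 5, where it was called (adjusted p = 0.0333). Inside each group the level rose in the order of the library numbers. The sign depended on how that trend was treated, in what is otherwise the same fit. With the number centred within each group the log2 fold change was 0.20 (adjusted p = 7.91e-04). A linear drift over 1 to 8 carries the trend on from the control to the NaCl libraries, and the log2 fold change was then -0.37 (adjusted p = 0.00571).

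Between the lipins the balance moved toward Lpin2. The log2 ratio of Lpin1 to Lpin2 counts was -0.65 ± 0.137 (SD, n = 4) in control libraries and -1.32 ± 0.233 (SD, n = 4) with NaCl, a difference of -0.67 (exact permutation p = 0.0286, adjusted 0.0357). Lpin3, the remaining member of the family, had 11.9 ± 1.13 CPM in control and 11.1 ± 1.73 CPM in NaCl libraries and was not called (adjusted p = 0.581), though with a linear drift it was called lower (log2 fold change -0.57, adjusted p = 0.0148).

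The upstream sequences of the lipins are set side by side because the genes changed by different amounts and differed in a motif. For Lpin2 the window before the start of its longest annotated transcript is shown (GRCm38.p6, chr17:71183728-71183977, plus strand), and for Lpin1 its single RefSeq window (chr12:16610967-16611216, minus strand):

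Lpin1: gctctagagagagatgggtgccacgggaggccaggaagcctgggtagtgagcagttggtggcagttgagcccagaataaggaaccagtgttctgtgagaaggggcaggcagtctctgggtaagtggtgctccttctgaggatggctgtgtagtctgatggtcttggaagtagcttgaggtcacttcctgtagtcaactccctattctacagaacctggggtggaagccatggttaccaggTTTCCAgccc
Lpin2: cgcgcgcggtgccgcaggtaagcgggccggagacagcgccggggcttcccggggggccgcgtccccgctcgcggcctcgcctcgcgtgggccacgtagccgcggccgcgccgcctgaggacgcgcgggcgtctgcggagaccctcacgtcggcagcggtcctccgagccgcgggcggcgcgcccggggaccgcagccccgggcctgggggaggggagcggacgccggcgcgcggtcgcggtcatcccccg

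Capitals mark TTTCCA, the reverse complement of TGGAAA, the core of the tonicity element that NFAT5 binds. In Lpin1 it begins at position -10 from the start. The core occurred on either strand in 21.4% of all 32851 windows, and of the 7 members with an entry only Lpin1 held it. These letters were in none of the 3 windows of Lpin2. The Lpin2 stretch shown has 83.2% G and C and the Lpin1 stretch 54.8%. The stretches before the remaining Lpin2 starts have 65.2% and 44.8%, so this contrast depends on the window. The motif TGACGTG, an unfolded protein response element, was in 2.01% of all windows and in none of the members' windows.

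The diacylglycerol acyltransferases, which complete triglyceride synthesis, also diverged. Dgat1 (ENSMUSG00000022555, chromosome 15, 76502015 to 76511953, minus strand) had 27.1, 28.2, 28.8 and 24.8 CPM in control and 30.9, 31.6, 28.9 and 28.0 CPM in NaCl libraries. NaCl replicate 8 lay inside the control range. The log2 fold change of 0.13 (95% interval 0.0017 to 0.26) was not called (adjusted p = 0.111), but was 0.31 and called with a linear drift (adjusted p = 0.0433).

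Dgat2 (ENSMUSG00000030747, chromosome 7, 99153658 to 99182719, minus strand), unrelated to Dgat1 in sequence, encodes the acyltransferase often found at lipid droplets. It was the member with the fewest counts, 197 to 301 per control and 131 to 178 per NaCl library. In CPM it had 6.31, 6.28, 5.10 and 4.66 in control and 3.65, 3.90, 4.31 and 3.41 in NaCl libraries. The highest NaCl value lay just below the lowest control, and the level dropped by 0.55 on the log2 scale (SE 0.14, adjusted p = 0.00457), to 0.683 of control. With a linear drift the log2 fold change was -0.16 and the call was lost (adjusted p = 0.732). The log2 ratio of Dgat1 to Dgat2 counts rose from 2.29 ± 0.190 to 2.97 ± 0.152 (SD, n = 4 each), a 1.60-fold change (exact permutation p = 0.0286, adjusted 0.0357).

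The levels of the genes were ordered per kilobase of annotated exon (GENCODE M21, union of all transcripts). In control libraries Chpt1 was highest, at 18.9 ± 1.30 CPM per kb, followed by Etnk1 at 14.1 ± 0.325 CPM per kb (SD, n = 4 each). Cept1 (11.0 ± 0.760) and Pcyt1a (10.6 ± 0.502) came next, with overlapping libraries. Pcyt2 (8.93 ± 0.545) and Dgat1 (8.91 ± 0.578) also overlapped each other. Below them were Chka (6.37 ± 0.387), Lpin2 (4.20 ± 0.199), Lpin1 (3.41 ± 0.442) and Dgat2 (1.81 ± 0.272), whose libraries did not overlap. With NaCl, Lpin2 reached 7.70 ± 0.263 and Chka 8.49 ± 0.584 CPM per kb, and Dgat2 stayed lowest at 1.24 ± 0.126. Per kilobase of the longest transcript, Chpt1 and Etnk1 were still the highest and Lpin1 and Dgat2 the lowest in both groups, but the order between them changed. In control libraries Cept1 went from place 3 to 7, Pcyt2 from 5 to 3 and Chka from 7 to 4, so that Chka stood level with Pcyt1a (16.5 CPM per kb each) and above Dgat1 (14.4).

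The rest of the pathway was read from 10 lists of 84 genes, of which 70 were tested. Of these 70, 8 were called higher and 17 lower (35.7% called, beside 34.1% of all genes), with a median log2 fold change of -0.055. Without NaCl replicate 6 the called genes numbered 16, of which 9 were lower, and without control replicate 1 or NaCl replicate 8 those called higher numbered 5. The called genes with the highest and the lowest log2 fold change were Chdh and Gdpd5, of choline and glycerophosphocholine metabolism.

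**Figure D4:**
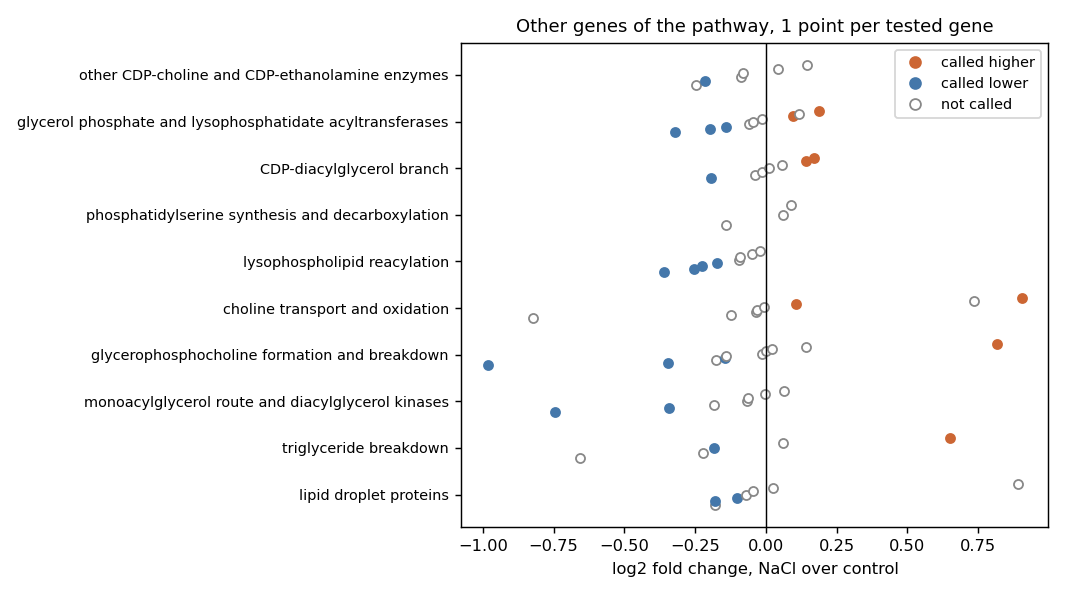
Log2 fold change, NaCl over control, of the 70 tested genes of the other lists (horizontal axis), with a point per gene, filled where called. Most points lie close to 0, and the called genes farthest from 0 are Chdh and Pnpla6 on the right and Gdpd5 and Mogat2 on the left.

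Of the 10 genes tested on the list of glycerophosphocholine formation and breakdown, 1 was called higher, 3 lower, and 6 were not called. Pnpla6 encodes neuropathy target esterase, a lysophospholipase that forms glycerophosphocholine. It had 68.6, 67.4, 75.3 and 73.2 CPM in control and 128.7, 128.9, 118.0 and 125.1 CPM in NaCl libraries. All NaCl libraries were far above the controls, a 1.76-fold rise (log2 fold change 0.82, SE 0.044, adjusted p = 4.95e-10).

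Gdpd5 encodes a glycerophosphocholine phosphodiesterase, which degrades that osmolyte. It had 12.0, 11.6, 11.3 and 11.1 CPM in control and 4.85, 6.98, 6.18 and 5.22 CPM in NaCl libraries. Its level dropped by 0.98 on the log2 scale (SE 0.11, adjusted p = 3.14e-06), to 0.507 of control, with no overlap. Pnpla7, a relative of Pnpla6 that acts on lysophosphatidylcholine, was lower at 10.9 ± 0.472 against 13.9 ± 1.09 CPM (log2 fold change -0.35, adjusted p = 0.00322, and 0.219 with a linear drift). Lypla1, a lysophospholipase gene, was the remaining one, at 89.7 ± 3.51 and 81.2 ± 5.58 CPM with overlapping groups (log2 fold change -0.14, adjusted p = 0.0285). That call was lost without control replicate 2 (adjusted p = 0.0898) or NaCl replicates 6 (0.105) or 8 (0.0835), with library totals alone (0.0511) and with a linear drift (0.595). Gpcpd1, which encodes another glycerophosphocholine phosphodiesterase, was at 14.5 ± 0.833 and 13.1 ± 1.16 CPM and not called (adjusted p = 0.196).

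Among 8 tested genes of choline transport and oxidation, 2 were called, both higher. Chdh, which encodes the mitochondrial choline dehydrogenase that starts the conversion of choline to betaine, had 100.2, 103.7, 108.7 and 125.1 CPM in control and 215.4, 199.9, 195.9 and 207.5 CPM in NaCl libraries. Its 1.87-fold rise (log2 fold change 0.90, SE 0.061, adjusted p = 1.94e-07) left a wide gap between the groups. Slc44a1, a choline transporter gene, was called with a log2 fold change of 0.10, at an adjusted p-value of 0.0395. That call was lost without any 1 of control replicates 1, 2 and 4 or NaCl replicates 5, 7 and 8 (adjusted p from 0.0585 to 0.128). Slc44a2 was at 129.5 ± 6.43 and 126.4 ± 6.75 CPM and not called (adjusted p = 0.588), but with a linear drift its log2 fold change was -0.25 and called (adjusted p = 0.00442). With that drift Slc44a1 was not called (adjusted p = 0.849).

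**Figure D5:**
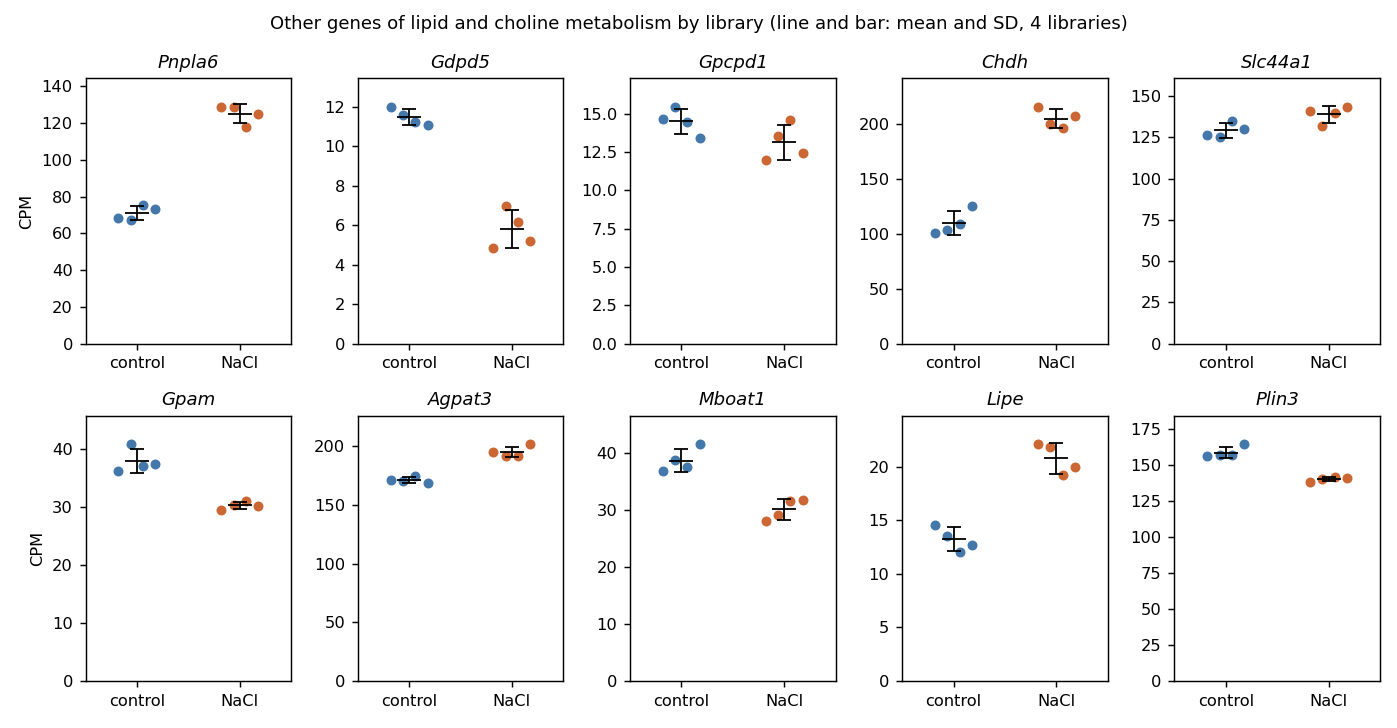
Level in CPM (vertical axis, from 0) of 10 other genes of lipid and choline metabolism in 4 control and 4 NaCl libraries, with the mean and SD in black. Pnpla6, Chdh, Agpat3 and Lipe lie higher and Gdpd5, Gpam, Mboat1 and Plin3 lower with NaCl without overlap, and Gpcpd1 and Slc44a1 overlap.

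Acyltransferases that build phosphatidate, the substrate of the lipins, were mixed, with 2 of 9 called higher and 3 lower. Gpam, the mitochondrial glycerol phosphate acyltransferase gene, fell from 37.9 ± 2.05 to 30.3 ± 0.629 CPM (log2 fold change -0.32, SE 0.053, adjusted p = 1.60e-04). Agpat3 rose from 171.4 ± 2.45 to 195.2 ± 4.68 CPM (log2 fold change 0.19, SE 0.032, adjusted p = 2.45e-04). Of the acyltransferases that remodel lysophospholipids, 4 of 8 were called, all lower, and the list's log2 fold changes ran from -0.36 to -0.020. Mboat1 had the lowest, falling from 38.6 ± 2.07 to 30.1 ± 1.79 CPM (SE 0.058, adjusted p = 1.37e-04).

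The CDP-diacylglycerol branch, which leads to phosphatidylinositol and cardiolipin, had 2 of 7 genes called higher and 1 lower. Pgs1, the phosphatidylglycerophosphate synthase gene, went from 63.7 ± 1.48 to 71.8 ± 1.11 CPM (log2 fold change 0.17, adjusted p = 0.00219, and 0.203 with a linear drift). Of 3 genes of phosphatidylserine synthesis and decarboxylation, 0 were called by edgeR, and 0 by DESeq2, limma-voom or limma on the normalized values. Ptdss1 and Pisd, 2 of the 3, had unadjusted edgeR p-values of 0.0413 and 0.0312, and Pisd was called lower with the library number centred within its group (adjusted p = 0.0436). Of 6 other genes listed with the choline and ethanolamine branches, which include the lipin gene Lpin3, 1 was called. That gene, Selenoi, encodes the ethanolamine phosphotransferase and went from 59.5 ± 4.02 to 51.3 ± 4.68 CPM (log2 fold change -0.21, adjusted p = 0.0170), a call lost without NaCl replicate 6 (0.0566). With a linear drift Selenoi was at -0.51 and called (adjusted p = 3.66e-05).

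Triglyceride turnover was examined next to the Dgat genes. Lipe, which encodes hormone-sensitive lipase, rose from 13.2 ± 1.11 to 20.8 ± 1.41 CPM, with no overlap (log2 fold change 0.65, SE 0.078, adjusted p = 7.10e-06). Pnpla2, which encodes the main triglyceride lipase, was not called (log2 fold change 0.061, adjusted p = 0.464), and with a linear drift it was called lower (-0.23, adjusted p = 0.0218). Without single libraries its log2 fold change ran from 0.015 (without control replicate 1) and 0.030 (control replicate 2) to 0.12 (control replicate 4), and it was not called in any of these fits. Mogat2, of the monoacylglycerol route to diacylglycerol, went from 3.42 ± 0.847 to 2.04 ± 0.297 CPM (log2 fold change -0.74, adjusted p = 0.00757, and 0.703 with a linear drift). Of 7 tested lipid droplet protein genes, 2 were called, both lower. Plin3 fell from 158.5 ± 3.88 to 140.1 ± 1.56 CPM (log2 fold change -0.18, adjusted p = 4.13e-04), and Plin2 was at 204.4 ± 3.96 and 190.3 ± 6.70 CPM (log2 fold change -0.10, adjusted p = 0.0290). Leaving out control replicate 2 or 4 or NaCl replicate 5 or 6 ended the Plin2 call (adjusted p from 0.0584 to 0.0949).

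Other called genes of these lists were changed by small amounts, and single libraries or a linear drift decided several of them. Dgkh, a diacylglycerol kinase gene, was lower with NaCl (log2 fold change -0.34, adjusted p = 0.00454, and 0.478 with a linear drift). Lclat1 (-0.20) was not called without NaCl replicate 6 (adjusted p = 0.0508). Gpat4 (0.097) was not called without control replicates 1 or 3 or NaCl replicates 5, 6 or 8 (0.0503 to 0.0825), and Cdipt (0.14) without control replicates 1 or 2 or NaCl replicates 7 or 8 (0.0524 to 0.0682). Ptpmt1 (-0.20) was not called without control replicates 1 or 2 or NaCl replicates 6 or 8 (0.0522 to 0.0791). Mboat2 (-0.25) lost its call without control replicate 3 or NaCl replicates 5, 6 or 7 (0.0522 to 0.0645), and Abhd5 (-0.18), the activator of Pnpla2, without control replicate 1 or NaCl replicates 6 or 7 (0.0665 to 0.0802). With the drift, Lclat1 was at -0.045 (adjusted p = 0.812), Ptpmt1 at -0.035 (0.882), Gpat4 at 0.064 (0.483), Abhd5 at -0.12 (0.526) and Cdipt at -0.0058 (0.970), none of them called. Mboat2 was called with the drift, at -0.64 (adjusted p = 3.52e-07).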

How the data were processed

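Bulk RNA was sequenced from 4 control and 4 NaCl libraries. The authors deposited raw counts per Ensembl gene and a normalized signal, in which each library's counts are divided by its own factor (0.864 to 1.15). Trim Galore 0.6.7, STAR, DESeq2 1.34.0 and build mm10 are named, per the submitters' processing notes, without roles. The counting program, strandedness and filters are not given in the sources used here.

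Counts were fitted in R 4.3.3 with edgeR 4.0.16 (filterByExpr at a minimum count of 10, TMM factors, robust quasi-likelihood F test on the group), with Benjamini-Hochberg adjustment over 14024 genes. The 1264 genes removed held 0.0191% of counts. CPM used TMM-scaled totals. Ratios within enzyme pairs used counts plus 0.5 and exact two-sided permutation tests. Total depth of 35.3 to 47.6 M counts leaves small counting error for members other than Dgat2. No replicate pair was identical, and all differed by more than counting error.

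The members and lists were chosen with earlier results of these data known. All 10 members were named. From each list, up to 2 called genes with the highest and 2 with the lowest fold change were added if their mean log2 CPM reached 0, with Gdpd5, Gpcpd1, Slc44a1 and Slc44a2. Ptdss1, Pisd, Pnpla2, Lpin3, Pcyt1b, Chkb, Etnk2 and Lypla1 were named after their values were seen. Alternatives used DESeq2 1.42.0, limma 3.58.1, other scalings and filters, library-number terms, and each library left out. The centred number and the linear drift describe the data equally well, because they are the same fit. They differ in that the drift extends the trend inside the groups across them before the groups are compared. Gene models came from GENCODE M21 and promoters from RefSeq (GRCm38.p6), the build that mm10 denotes. Sequence shared between genes was searched with blastn 2.17.0 (at least 75 bases at 98% identity), and members shared sequence only with the overlapping genes Dennd2d, Sycp3, Slc51a and Gm16066.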

Additional observations from a re-analysis of the deposited data

Results flagged for a closer look

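Among 76 groups of 4 values (33 named genes and 5 ratios, in each condition), 1 held a library far from the remaining 3, where chance gives about 3.8. Plin3 had 164.3 CPM in control replicate 4, against 156.0 to 157.1 CPM in the other controls. The NaCl libraries lay at 137.8 to 141.2 CPM, below all controls with or without that library. No level or ratio of the 10 enzyme genes stood apart in this way.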

How the results depend on the processing

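The number of members called was 7 (4 higher and 3 lower) under each of 3 other scalings, 2 other filters, DESeq2, limma-voom and limma on the authors' normalized values, and in those 8 fits the same 7 genes were called. It was 6 at an adjusted p-value under 0.01, and 6 to 8 when each library was left out in turn. Over 190 comparisons of single members with the main fit, 176 kept direction and call, 7 lost the call, 3 gained it and 4 changed sign. These include the threshold of 0.01, which reused the main fit and at which Chpt1 lost its call. The sign changes were Chpt1 (-0.010) and Lpin1 (-0.37) with a linear drift over the library number, and Cept1 without control replicate 3 (-0.017) or NaCl replicate 7 (-0.0072), in a range for Cept1 from -0.017 to 0.062 over the left-out libraries. Among 437 such comparisons of the other genes that the rule named, 50 lost the call, Slc44a2 gained it with the drift, and Cdipt changed sign with the drift (-0.0058). With the drift 6 members were called, 4 higher and 2 lower, of which Chka, Pcyt2, Lpin2 and Etnk1 were also called in the same direction without it. The cause was not tested.

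At an adjusted p-value under 0.01, 3145 genes were called, 1545 higher and 1600 lower, in place of 4789. Of the other pathway genes 13 were then called, 5 higher and 8 lower, and 5 were higher with the drift. Leaving out libraries gave 16 to 24 other pathway genes, 5 to 8 higher and 9 to 16 lower. The differences of the 5 ratios kept their direction and their side of the threshold with no pseudocount. The authors' normalized values gave the same, but a single factor per library cancels in a ratio. That setting could therefore change nothing apart from the pseudocount. Without any single library the differences kept their direction, a setting in which they were not tested. No library-number term was fitted to the ratios. A linear drift ended the calls of Pcyt1a and Dgat2 and turned the sign of Lpin1, which are parts of 3 of these ratios. No paired analysis was made because the labels name no pairing or batch. With the library number centred within its group, 6030 genes and 8 members were called, and with the drift 3382 genes and 6 members. Dgat2, with 131 to 301 counts per library, has the widest error of the members.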
